A study of Mus musculus with 4 samples.

Results

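The genes of glucocorticoid signalling and response were examined in mouse fetal lungs with reduced Fgf8, a secreted fibroblast growth factor. They were chosen by name, as 10 genes: the receptor Nr3c1, the hormone-converting enzymes Hsd11b1 and Hsd11b2, and the response genes Fkbp5, Tsc22d3, Zbtb16, Pdk4, Klf9, Rgs2 and Sgk1. Of these, 9 had at least 1 probe, 19 of the 41174 probes on the array in all, and every probe of each gene was kept. No spot analysed here carried the name Zbtb16, and Sgk1 was listed under its older name Sgk. Lungs of the Fgf8 hypomorph, whose genotype the preparation notes write Fgf8H/-, were compared with Fgf8+/+ control lungs, called wild type here. The sample titles write AP/N for the hypomorph, letters the labels do not explain, so its alleles are known from the preparation notes alone. Both were taken at E18.5, shortly before birth, and came from mice on what the labels call a c57nl7/sv129 background. The lobes were dissected free of large airways and vessels, and each RNA sample pooled 3 lungs of a genotype. On 4 two-colour arrays, a hypomorph pool in Cy5 was hybridised together with a wild type pool in Cy3, so n = 4 pools per genotype unless stated.

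Glucocorticoids are steroid hormones that rise in the fetus before birth and are known to drive the thinning and maturation of the lung. They enter cells and bind the glucocorticoid receptor, which is held ready by heat shock protein chaperones, and the bound receptor moves to the nucleus and binds DNA. Its best known site is a palindrome whose arms are AGAACA and TGTTCT, and it raises some genes there while it represses many inflammatory genes by other means. How much hormone reaches the receptor also depends on enzymes within the tissue that make or destroy its active form.

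After loess, more of these probes were called lower than higher. Pdk4, which encodes a kinase that holds back the entry of pyruvate into the citric acid cycle, was 1.74-fold lower in hypomorph lungs, with a log2 ratio of -0.80 ± 0.10 (SD, n = 4). A probe for the transcription factor Klf9 was 1.84-fold lower, and the probe for Hsd11b1, the enzyme that regenerates active hormone from its inert form, was 1.44-fold lower, although not with median centring (log2 ratio 0.01). A probe for Rgs2, a brake on G protein signalling, was 1.76-fold higher, while the other Rgs2 probe did not differ beyond the threshold. The receptor gene Nr3c1 itself had mean log2 ratios between -0.22 and -0.10 over its 4 probes, of which 1 was called. All ratios are log2 of hypomorph over wild type after loess, and a probe was called at an adjusted p under 0.05 (limma, Benjamini-Hochberg over all 30008 probes tested). In whole lung RNA, fewer cells of a type and less RNA per cell cannot be told apart.

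Of the 19 probes, 16 were tested, for 8 genes, and of these 1 was called higher, 8 were called lower and 7 were not called. Over all probes tested, 12.7% were called higher and 12.2% lower. The median log2 ratio was -0.17 over the glucocorticoid probes and 0.00 over all probes. Of the 16 tested probes, 14 had a mean below 0, and the median of the set on arrays 1 to 4 was -0.07, -0.24, -0.21 and -0.25. Array 1 was thus closest to 0, and without it 17 probes were tested and 12 called lower, 11 of them among these 16 and the other being a probe for Tsc22d3, which had values on 2 arrays. The number lower was 3 without array 2 and 5 without array 3. Calls over all probes also varied, from 1604 to 8055, when 1 array was left out. The probes of 1 gene are not independent of each other. This balance also rested on the normalization: with median centring of each array instead of loess, 3 probes were called higher and 3 lower, and the median of the set was 0.05. Under that centring the median of all probes was 0.10, with 36.7% called higher and 12.8% lower.

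**Figure D1:**
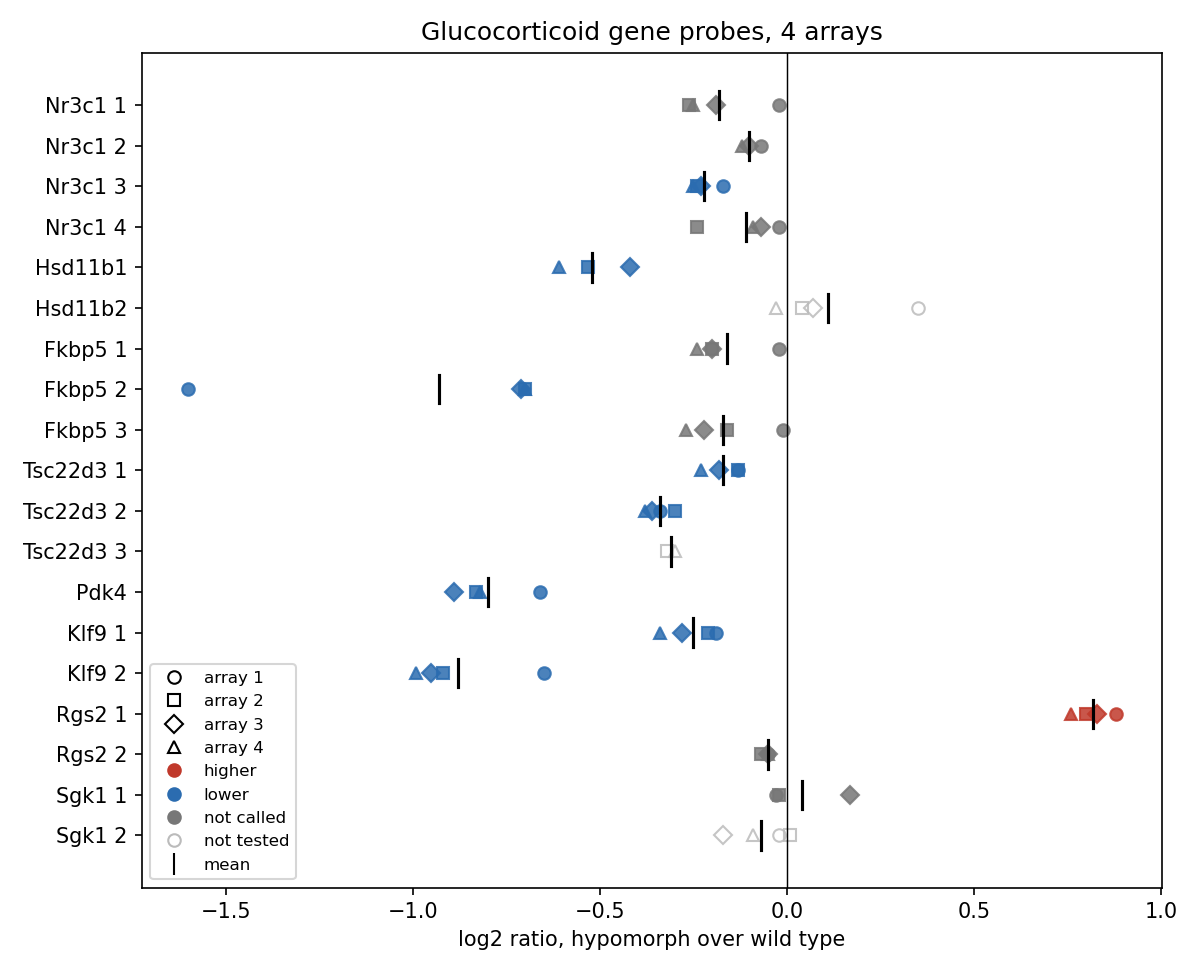
Log2 ratio of hypomorph over wild type (horizontal axis) on each of 4 arrays (marker shapes) for the 19 probes of the glucocorticoid genes, with the mean as a black bar and probes of a gene numbered by falling brightness. Colours give the call, and open grey markers are probes that were not tested. Pdk4, Klf9 2 and Fkbp5 2 lie farthest to the left on every array, and Rgs2 1 is the only called probe to the right of 0.

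Promoter sequence was taken from RefSeq on build GRCm38.p6 as the 250 bases before each annotated start, which gave 14 windows for 7 of the genes. The windows of Pdk4 and Klf9 are shown because a probe of each was called lower under every setting that tested it, and 1 of the windows of Sgk1 because it holds the full receptor palindrome although Sgk1 was not called. They are given 5′ to 3′ in the gene's direction, and capitals mark matches to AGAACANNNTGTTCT or to its arm AGAACA on either strand. The Pdk4 window is chr6:5496279-5496528 on the minus strand, the Klf9 window chr19:23140976-23141225 on the plus strand and the Sgk1 window chr10:21993640-21993889 on the plus strand.
Pdk4: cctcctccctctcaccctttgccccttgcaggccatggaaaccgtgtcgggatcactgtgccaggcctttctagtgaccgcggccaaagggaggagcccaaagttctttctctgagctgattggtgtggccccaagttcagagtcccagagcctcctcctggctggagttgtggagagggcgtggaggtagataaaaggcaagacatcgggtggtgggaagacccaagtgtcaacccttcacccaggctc
Klf9: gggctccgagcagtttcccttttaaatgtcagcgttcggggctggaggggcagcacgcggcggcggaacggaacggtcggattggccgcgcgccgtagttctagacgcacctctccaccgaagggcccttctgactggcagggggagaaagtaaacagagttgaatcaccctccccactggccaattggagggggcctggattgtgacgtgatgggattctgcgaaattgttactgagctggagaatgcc
Sgk1: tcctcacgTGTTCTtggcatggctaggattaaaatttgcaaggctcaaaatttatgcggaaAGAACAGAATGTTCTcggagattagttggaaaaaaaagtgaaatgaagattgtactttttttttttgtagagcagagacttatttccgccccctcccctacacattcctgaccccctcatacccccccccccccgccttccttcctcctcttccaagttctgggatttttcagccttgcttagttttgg
The Sgk1 window held the palindrome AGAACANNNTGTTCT, which begins 189 bases before the start, and its looser form GNACANNNTGTNC with the letters GAACAGAATGTTC. Another arm stood 242 bases before the same start. Neither form was found in these windows of Pdk4 or Klf9, nor in those of Hsd11b1, Fkbp5, Rgs2 or Tsc22d3. The arm AGAACA, which overlaps the palindrome, also stood in 2 other Sgk1 windows and in 1 of the 3 Tsc22d3 windows. Over all 32851 windows of the same length, 3 held the full palindrome (0.00913%), 127 the looser form (0.387%) and 5284 the arm on either strand (16.1%). A match describes the letters and not a bound site, and a window without one says nothing of sites elsewhere.

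Nr3c1 encodes the glucocorticoid receptor. Its 4 probes lie at chromosome 18, between 39536939 and 39540562 on the minus strand of build mm8, the build of the array's positions. The brightest, Nr3c1 1, had log2 ratios of -0.02, -0.26, -0.19 and -0.25 on arrays 1 to 4 and a mean of -0.18 ± 0.11 (adjusted p = 0.0586). Its log2 signal was 14.00, 13.73, 13.90 and 13.83 in the hypomorph pools and 14.02, 13.99, 14.08 and 14.08 in the wild type pools, so the genotypes overlapped. Only Nr3c1 3 was called, at -0.22 ± 0.04 or 1.17-fold lower (adjusted p = 0.0143). Its hypomorph signals of 9.63, 9.42, 9.43 and 9.39 all lay below the wild type signals of 9.80, 9.66, 9.67 and 9.65. That call was lost without array 2, 3 or 4 in turn (adjusted p = 0.0806, 0.071 and 0.0502) and with median centring (-0.09, adjusted p = 0.287). Nr3c1 2 (-0.10 ± 0.02, n = 3) and Nr3c1 4 (-0.11 ± 0.09) were not called, and Nr3c1 1 was called without array 1 (-0.23, adjusted p = 0.0145). The 4 receptor probes thus shared a sign, with all of their 15 ratios below 0, and spanned 0.13 in log2, but with median centring Nr3c1 1 and Nr3c1 2 read 0.20 and 0.13.

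The enzymes that set the local hormone level gave 1 clear value. Hsd11b1 turns the inert keto form of the hormone back into active corticosterone in the mouse. Its probe lies at chromosome 1, 194922699 to 194922758 on the minus strand (mm8), and the array 1 spot was marked as an outlier by the scanner software and left out. On arrays 2, 3 and 4 its log2 signal was 15.34, 15.28 and 15.25 in hypomorph pools, against 15.87, 15.71 and 15.86 in wild type pools. Every hypomorph pool lay below every wild type pool. The log2 ratios were -0.53, -0.42 and -0.61, with a mean of -0.52 ± 0.09 (n = 3, adjusted p = 0.00623). The marked spot itself read -0.54, and with it kept the mean was -0.53 ± 0.08 (n = 4, adjusted p = 0.00182). Without array 2 the adjusted p was 0.055. The probe is bright, and with median centring its ratio was 0.01 (adjusted p = 0.926), at a brightness where the 100 nearest probes had a median of 0.63 under that centring. Relative to those neighbours it read -0.62 with median centring and -0.54 with loess. Hsd11b2, which inactivates the hormone, was at the edge of detection. Its probe at chromosome 8, 108412014 to 108412231 on the plus strand, was well above background on arrays 3 and 4 only, in both genotypes, and was not tested. Its 4 ratios were 0.35, 0.04, 0.07 and -0.03.

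Fkbp5 and Tsc22d3 are among the genes that glucocorticoids raise most regularly across tissues. Fkbp5 encodes a co-chaperone that lowers the receptor's affinity for hormone, and its 3 probes gave unequal answers. Fkbp5 2, at chromosome 17, 28165639 to 28165698 on the minus strand (mm8), had log2 ratios of -1.60, -0.70, -0.71 and -0.70. The mean of -0.93 ± 0.45 was 1.90-fold lower (adjusted p = 0.0121), and it was -0.70 without array 1. Without array 2 the call was lost (adjusted p = 0.0556). Its log2 signal was 10.68, 11.73, 10.96 and 11.16 in hypomorph pools and 12.28, 12.43, 11.67 and 11.87 in wild type pools. The hypomorph pool was lower on every array, but the highest hypomorph pool lay above the lowest wild type pool. Fkbp5 1 and Fkbp5 3 lie 38117 and 37402 bases from it, farther along the minus strand in the direction of transcription, and only 715 bases from each other. They read -0.16 ± 0.10 and -0.17 ± 0.11 (adjusted p = 0.0643 and 0.0737), with array 1 close to 0 on both. With median centring Fkbp5 1 read 0.09 and Fkbp5 2 still -0.71. Both of the nearby probes were called without array 1, at -0.21 and -0.22 (adjusted p = 0.0183 and 0.0196). On every array Fkbp5 2 was lower than Fkbp5 1, by 0.46 to 1.58 in log2.

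Tsc22d3, also known as Gilz, encodes a leucine zipper protein with anti-inflammatory actions. Its probes lie close together at chromosome X, between 135886092 and 135886835 on the minus strand (mm8). Tsc22d3 2 had a log2 signal of 14.69, 14.51, 14.65 and 14.59 in hypomorph pools and 15.02, 14.81, 15.00 and 14.96 in wild type pools, with no overlap. Its mean log2 ratio was -0.34 ± 0.03, which is 1.27-fold lower (adjusted p = 0.00439). Tsc22d3 1, whose start is 126 bases away, read -0.17 ± 0.05 (adjusted p = 0.0333), and this call was lost without array 2, 3 or 4 (adjusted p = 0.11, 0.123 and 0.0984). The probes differed by 0.14 to 0.20 on the 4 arrays. Tsc22d3 3 had values on 2 arrays only, -0.32 and -0.30, and was not tested. With its marked spots kept it read -0.25 ± 0.07 (adjusted p = 0.0132). The sign of this gene rested on the normalization. With median centring Tsc22d3 1 read 0.35 and was called higher (adjusted p = 0.00304), and Tsc22d3 2 read 0.15 (adjusted p = 0.119). The 100 probes nearest in brightness then had medians of 0.51 and 0.40.

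Pdk4 had a single probe, at chromosome 6, 5433441 to 5433500 on the minus strand (mm8). Its log2 signal was 11.25, 11.08, 11.29 and 11.52 in hypomorph pools, against 11.91, 11.91, 12.18 and 12.35 in wild type pools. The genotypes did not overlap. The ratios of -0.66, -0.83, -0.89 and -0.82 gave an adjusted p of 0.00117. It was called lower under all 11 alternative settings in which all arrays were used, with log2 ratios from -0.81 to -0.58, and without any 1 array (highest adjusted p = 0.0222). These settings were not all separate. The deposited series table repeats the scanner software's processed signals, and changes of filter or variance model reuse the loess ratios.

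Klf9 encodes a zinc finger repressor that is itself induced by glucocorticoids and thyroid hormone. Klf9 2, at chromosome 19, 23232745 to 23232804 on the plus strand (mm8), had a log2 signal of 11.42, 11.14, 11.33 and 11.44 in hypomorph pools. The wild type pools read 12.07, 12.05, 12.27 and 12.43, all above the hypomorph pools. Its log2 ratio was -0.88 ± 0.15 (adjusted p = 0.00152) and lay between -0.88 and -0.65 in the 10 alternatives that tested it on all arrays, each of which called it. As for Pdk4, some of these alternatives share their ratios. Klf9 1, which starts 801 bases upstream, read -0.25 ± 0.07 (adjusted p = 0.0134), 1.19-fold lower. The probes shared a sign and differed by 0.62 ± 0.11 in log2, with Klf9 2 lower on every array. The Klf9 1 call was lost without array 2 or 3 (adjusted p = 0.0667 and 0.0674) and with median centring (-0.02, adjusted p = 0.819). The size of the Klf9 decrease thus depended on the probe.

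**Figure D2:**
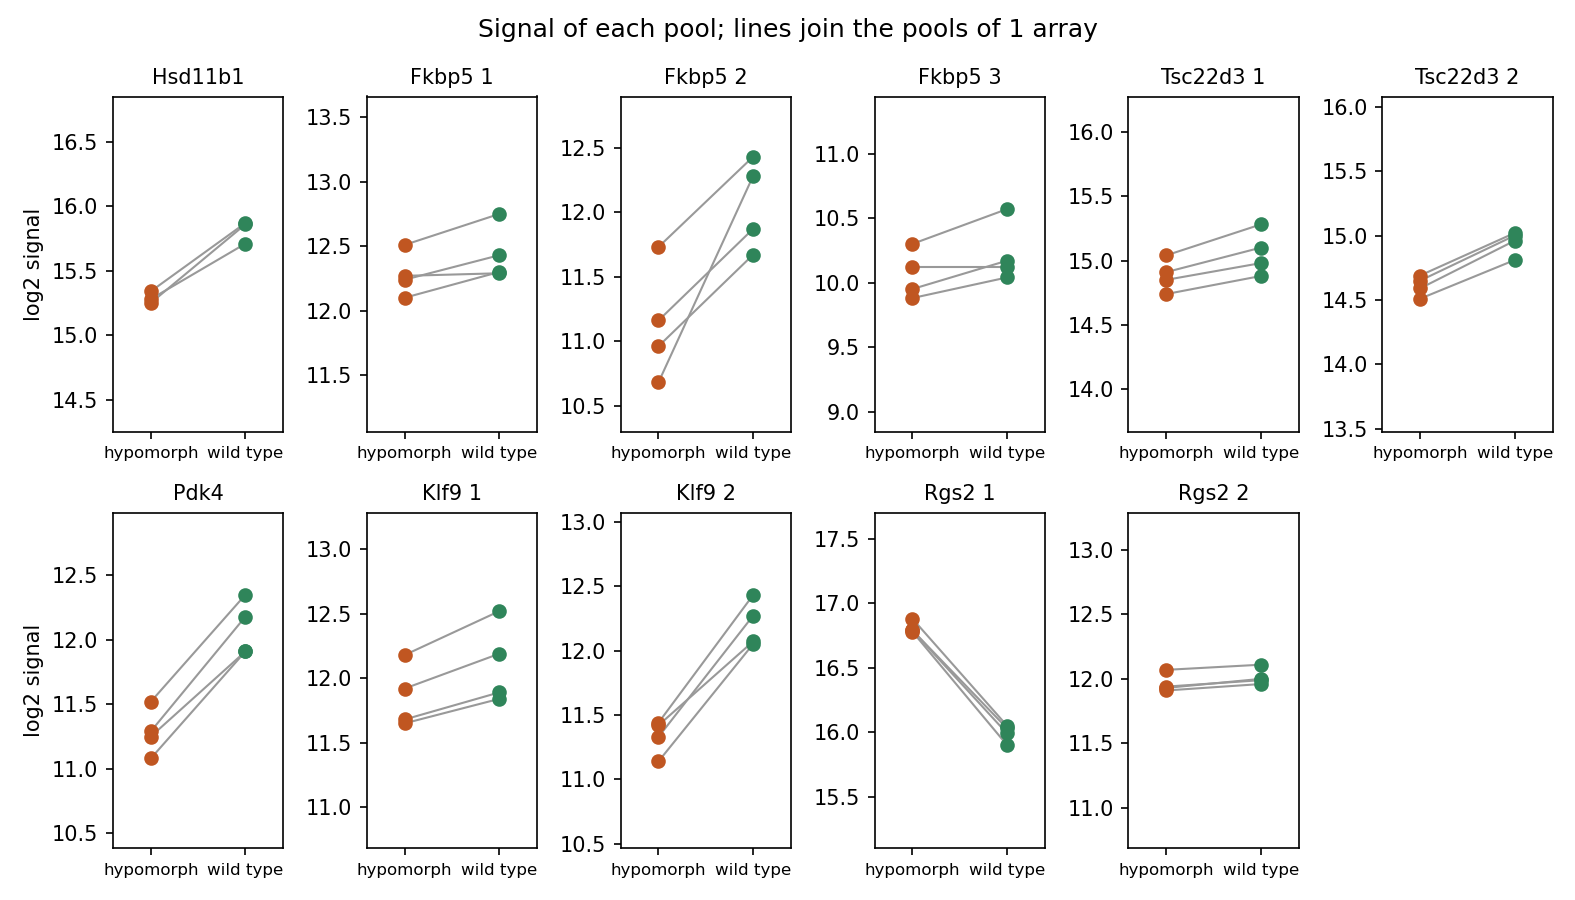
Log2 signal of each pool (vertical axis, of the same height in every panel) for the probes of Hsd11b1, Fkbp5, Tsc22d3, Pdk4, Klf9 and Rgs2, hypomorph pools left and wild type pools right, with lines joining the pools of 1 array. Pools do not overlap between genotypes for Hsd11b1, Tsc22d3 2, Pdk4, Klf9 2 and Rgs2 1, and for Fkbp5 2 the steepest line is array 1. How often pools do not overlap over all tested probes was not counted.

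Rgs2 speeds the shut-off of G proteins, and is induced by glucocorticoids in human airway cells. Rgs2 1, at chromosome 1, 145763381 to 145763440 on the minus strand (mm8), had a log2 signal of 16.78, 16.79, 16.88 and 16.79 in hypomorph pools. The wild type pools read 15.90, 15.99, 16.05 and 16.03, so the genotypes were well apart. The ratios of 0.88, 0.80, 0.83 and 0.76 averaged 0.82 ± 0.05 (adjusted p = 0.00104). Rgs2 2, which starts 1066 bases away, read -0.05, -0.07, -0.05 and -0.05 (adjusted p = 0.327). The probes differed by 0.87 ± 0.04, with Rgs2 1 higher on every array by 0.82 to 0.93.

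Rgs2 1 was among the brightest probes of the array. Its mean log2 brightness was 16.4, and its spots were read from the low-gain scan in both channels on 4 of 4 arrays and were not saturated. The same held for Hsd11b1, Tsc22d3 1 and Tsc22d3 2. For Nr3c1 1 and the tested Sgk1 probe, only the hypomorph channel was read at low gain, on 1 array. Above a brightness of 16, the 166 probes tested had a median log2 ratio of 0.26 after loess, against medians from -0.05 to 0.01 in 5 dimmer ranges. The 100 probes nearest to Rgs2 1 in brightness had a median of 0.22, and it lay 0.60 above them. Its ratio was 0.58 with a loess span of 0.1, 0.62 with the scanner software's processed signals and 1.55 with median centring, and it was called higher in each. Rgs2 2, at a brightness of 12.0, lay 0.06 below its neighbours. Which probe follows the transcript was not tested, and no probe sequence was used here.

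Sgk1 encodes a kinase that keeps the epithelial sodium channel at the cell surface, through which the lung clears its fluid at birth. Its probe at chromosome 10, 21689000 to 21689059 on the plus strand (mm8), read -0.03, -0.02 and 0.17 on arrays 1 to 3, a mean of 0.04 ± 0.11 (n = 3, adjusted p = 0.657). Its log2 signal was 13.81, 13.85 and 13.75 in hypomorph pools and 13.84, 13.86 and 13.58 in wild type pools, which overlapped. With median centring it read 0.41 and was called (adjusted p = 0.00238), 0.07 above its neighbours in brightness. Another Sgk1 probe, at 21588160 to 21588219, was not well above background on any array.

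**Figure D3:**
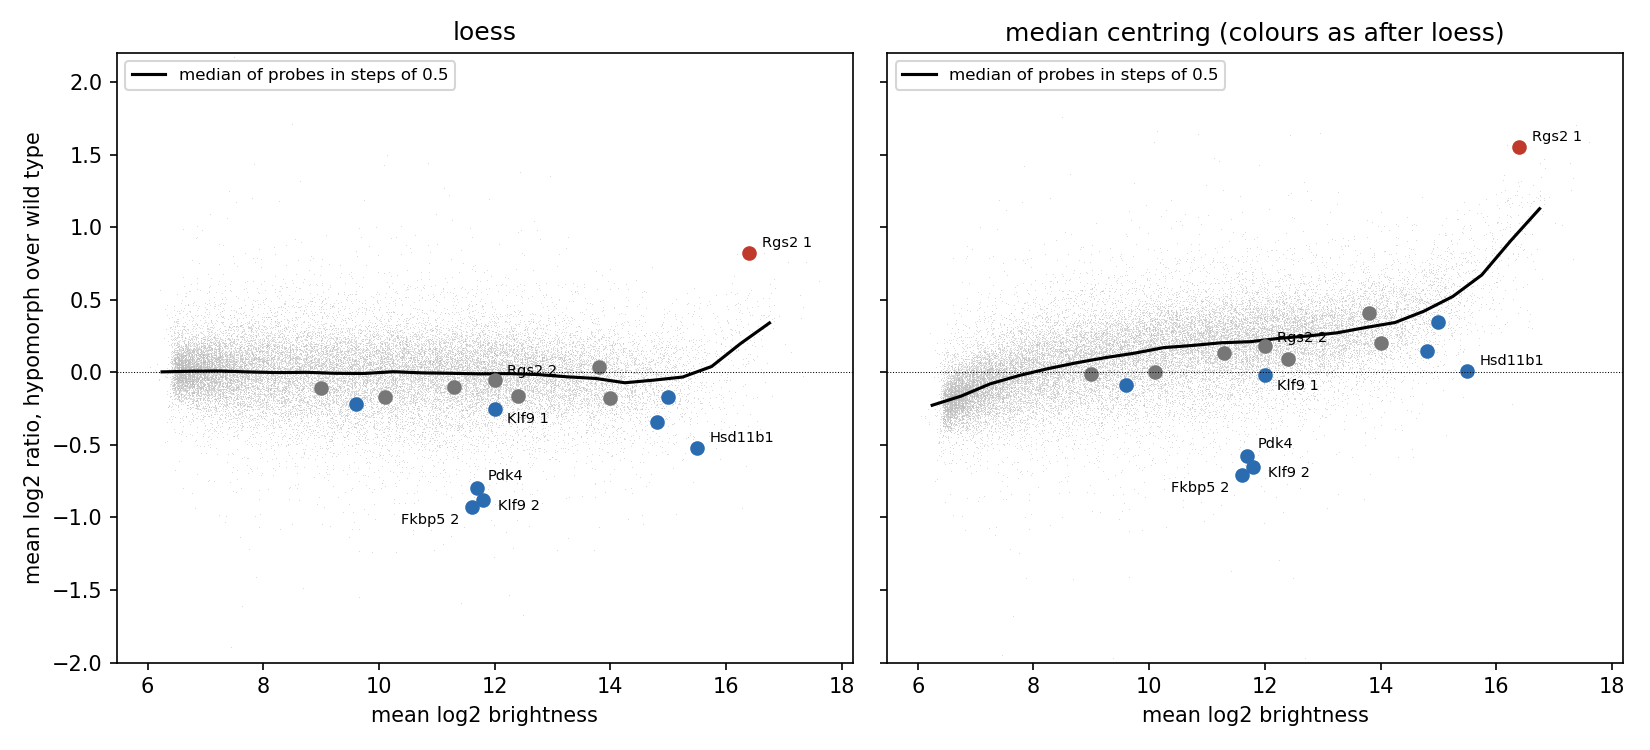
Mean log2 ratio of hypomorph over wild type (vertical axis) against mean log2 brightness (horizontal axis) for the 30008 tested probes (grey dots), after loess (left) and after median centring (right), with the tested glucocorticoid probes as large points coloured by their call after loess. The black line is the median of the probes. It rises above 0 near a brightness of 16 on the left and climbs across the whole range on the right, where Pdk4, Klf9 2 and Fkbp5 2 still lie below 0.

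Unequal probes were not peculiar to these genes. Among the 6605 genes with 2 or more tested probes, the probe means of a gene spanned a median of 0.14 and a 90th percentile of 0.38 in log2, and 2287 genes had some but not all probes called. The span was 0.87 for Rgs2, 0.76 for Fkbp5 and 0.62 for Klf9, above that percentile, and 0.17 for Tsc22d3 and 0.13 for Nr3c1. Whether the probes of Rgs2, Fkbp5 or Klf9 read different transcript forms was not tested.

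The wider pathway was described by 4 lists, each gene by its brightest tested probe. On that basis 13.6% of all 20623 genes were called higher and 13.0% lower. Of 33 tested genes known to be induced by glucocorticoids, 16 were lower, 2 were higher and 15 were not called, with a median log2 ratio of -0.19. Those with the smallest p were all lower. Cebpd, a leucine zipper transcription factor, had ratios of -0.87, -0.99, -1.07 and -0.85 and a mean of -0.94 ± 0.10 (adjusted p = 0.00113). Crispld2, a secreted protein, was lower by 2.14-fold (-1.10 ± 0.11, n = 3, adjusted p = 0.00145). The sulphotransferase Sult1a1 (-0.55 ± 0.07) and Dusp1, a phosphatase that shuts off MAP kinases (-0.47 ± 0.04), were lower too. The 2 higher genes, chosen after their values were seen, were the lipase inhibitor Angptl4 (0.58 ± 0.16) and Fam107a (0.44 ± 0.17). With median centring the list counted 11 higher and 6 lower, and its median was 0.05, against 0.13 over all genes, of which 40.6% were then called higher and 12% lower. Of the named genes, Cebpd (-0.23, adjusted p = 0.0494) and Crispld2 (-0.89) were then still called lower. Sult1a1 and Dusp1, both at -0.18, were not (adjusted p = 0.0677 and 0.0556). Cebpd was bright, at 16.3, and its ratio lay between -1.16 and -0.23 in the alternatives that used all arrays. The number lower was 8 without array 2 and 9 without array 3. Endothelial markers moved in the same direction, with 5 of 10 lower and 1 higher, and 7 higher with median centring.

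Of 14 tested genes known to be repressed by glucocorticoids, 7 were higher, 1 was lower and 6 were not called, and their median was 0.14. The chemokine gene Ccl2 had ratios of 0.90, 0.91, 0.92 and 0.82 and was 1.85-fold higher (0.89 ± 0.05, adjusted p = 8.96e-04). The growth factor Mdk was higher at 0.55 ± 0.06. Vcan, a matrix proteoglycan, read 0.80 ± 0.15 by its brightest probe and 0.22 and 0.33 by its other tested probes. The exception was Icam1, a leukocyte adhesion molecule of endothelium and epithelium, which was lower (-0.50 ± 0.04, and -0.18 by its other probe) but read -0.06 with median centring (adjusted p = 0.479). The number higher was 4 with the processed signals, 4 without array 2 and 3 without array 4. With median centring 6 were higher and 3 lower, and the median was 0.03. Among the 7 higher after loess, Mmp3 (brightness 6.5), Cxcl1 and Ccl7 (both 7.4) had dim probes. Mmp3 read 0.00 with median centring (adjusted p = 0.979).

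Of 19 tested chaperones and coregulators of the receptor, 4 were higher, 2 lower and 13 not called, with a median of 0.08. The named genes were the chaperone Hspa8 (0.26 ± 0.11), the co-chaperone St13 (0.18 ± 0.07), and the coactivators Crebbp (-0.16 ± 0.03) and Ncoa3 (-0.17 ± 0.06), whose other probes read up to 0.08 and 0.09. Each of these 4 calls was lost without array 2 (adjusted p between 0.0915 and 0.144) and without array 3 (adjusted p between 0.0647 and 0.133). Those of St13, Crebbp and Ncoa3 were also lost without array 4 (adjusted p = 0.0527, 0.0813 and 0.111), and that of St13 without array 1 (adjusted p = 0.0525). With median centring 14 of the 19 were higher, with a median of 0.36, and Crebbp and Ncoa3 then read 0.17 and 0.08. Of 10 tested genes of corticosteroid synthesis, transport and conversion, 2 were higher, 2 lower and 6 not called, and the median was -0.03. Crhr2, a receptor for corticotropin-releasing hormone peptides, was lower (-0.49 ± 0.17), and the steroid reductase Srd5a1 (0.30 ± 0.06) and the hormone precursor Pomc (0.26 ± 0.11) were higher. H6pd, which supplies the cofactor that Hsd11b1 needs, was lower (-0.29 ± 0.06, n = 3). The H6pd call was lost without array 2 or 3 (adjusted p = 0.115 and 0.0935) and with median centring, where it read 0.16, and the Pomc call without array 2 or 3 (adjusted p = 0.081 and 0.0707).

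**Figure D4:**
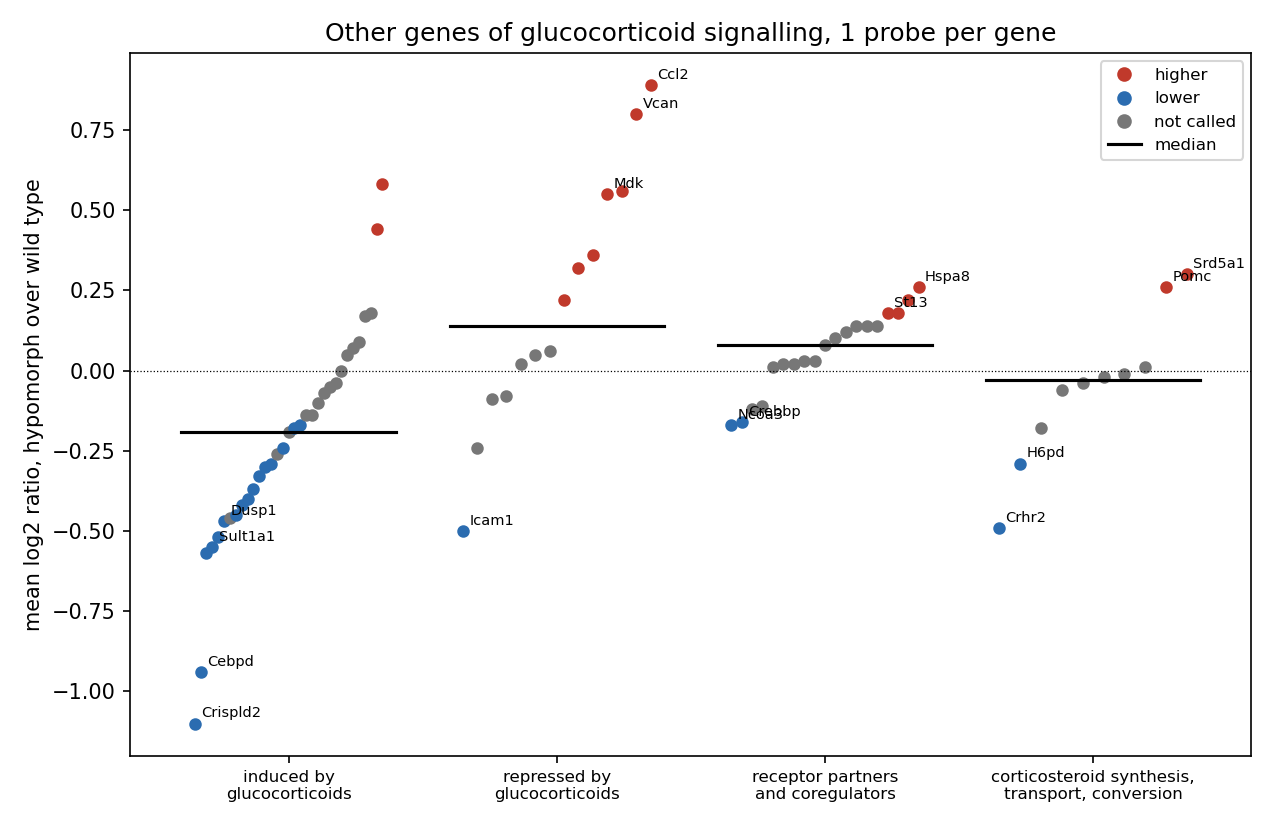
Mean log2 ratio of hypomorph over wild type (vertical axis) for the tested genes of 4 glucocorticoid lists (horizontal axis), ordered by ratio within each list, 1 point per gene by its brightest probe, coloured by call, with the list's median as a black line. The medians are -0.19, 0.14, 0.08 and -0.03 from left to right.

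For Fgf8 itself, 1 probe was well above background, with a log2 ratio of -0.18 ± 0.11 that was not called (adjusted p = 0.0572). The call was made, as lower, when Feature Extraction's processed signals were used (-0.25, adjusted p = 0.0486) and when background was left uncorrected (-0.20, adjusted p = 0.0476). The sources used here do not say whether that probe lies in the altered part of the allele. Between 32731 and 34519 of 43379 spots per array were well above background for the hypomorph and between 32491 and 33744 for the wild type. Markers of the labelled tissue were present: all 14 lung epithelial and 15 lung mesenchymal markers with a probe were well above background in both genotypes on at least 3 arrays. The summed signal of the endothelial markers ranged from 162991 to 181916 in hypomorph pools and from 194555 to 201176 in wild type pools over 8 genes. Blood markers were lower in 2 of 9. Their sums over 8 genes, 38044 to 43228 in hypomorph pools, lay below those of 43827 to 47442 in wild type pools. All these sums add unlogged signals, so the brightest genes weigh most. The brightest summed blood marker was Alas2 (brightness 14.7), at -0.22 and, with median centring, 0.25 (adjusted p = 0.0158). Epithelial markers counted 3 higher and 1 lower of 11. Their sums over 9 genes were 274997 to 309105 in hypomorph pools and 265327 to 298565 in wild type pools. Mesenchymal markers were lower in 2 of 13, with sums over 11 genes of 230006 to 286881 in hypomorph pools and 219189 to 289972 in wild type pools. Heart markers, a list for tissue that a dissection could carry along, were lower in 2 of 10. Their sums over 9 genes were 74619 to 106171 in hypomorph pools and 74641 to 133621 in wild type pools. Thymus markers were higher in 2 of 8, with sums over 8 genes of 1331 to 1422 in hypomorph pools and 1204 to 1275 in wild type pools. Apart from Lck (brightness 9), the summed thymus probes were dim, with a brightness of 6.3 to 7.8. All heart markers and 7 of 10 thymus markers were well above background, the exceptions being Cd8a, Foxn1 and Rag2. With median centring, 9 epithelial and 6 mesenchymal markers were higher and 0 lower. Blood markers then counted 2 higher and 2 lower, heart markers 1 and 3, and thymus markers 1 and 4. Over all genes 40.6% were then higher and 12% lower. The part of these cell types in the glucocorticoid values was not tested.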

How the data were processed

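Total RNA was measured on 4 two-colour Agilent arrays of 1 slide, read in 1 scan, with hypomorph in Cy5 and wild type in Cy3 on each, per the labels, and no dye swap. The scanner software was Agilent Feature Extraction, version 9.5.1 by the submitters' processing notes. Mean and background intensities were deposited as raw scanner values, and the deposited processed intensities are background-subtracted and dye-normalized, per the file headers. A deposited log10 column gives the ratio of processed red to processed green, per the file headers. The deposited series table holds log2 values, and comparison with each array's scanner file showed them to be log2 of processed red over green, with a correlation of 1 and column medians of -0.02, 0.00, -0.05 and -0.02. This settles the scale and centring of the series table and that it is red over green. Which genotype was red rests on the labels.

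Intensities were corrected with normexp (offset 50) and loess (span 0.3, control spots at weight 0) in limma 3.58.1 under R 4.3.3. Control spots and spots marked as outliers (2136 to 2219 per array) were left out and spots of a probe averaged. Probes well above background in 1 channel or both on 3 or more arrays, with 3 or more values, were tested by their mean log2 ratio against 0, with Benjamini-Hochberg adjustment over all probes. A dye effect on a probe has the same sign on every array and cannot be told apart from genotype. The number of arrays limits the precision, and the sources used here do not say whether pools came from separate litters, so p-values measure the spread between these pools. The signal of each pool was taken from its channel after loess and Aquantile. Overlap of the pools of a probe was read for the glucocorticoid probes only, so its share over all probes is not known. The fit and its calls were tested on simulated log2 ratios. There 76.1% of 1.5-fold and 92.6% of 2-fold changes were called, and 3.87% of calls were false. Only 200 of 27156 simulated probes were changed, a far smaller share than was called in the data. These figures therefore need not hold for the data. Normalization, filters and dye effects were not simulated. Named genes were all member probes, the 4 genes of each other pathway list with the smallest p, and Fgf8. The members and lists were chosen with earlier results of these data known. Alternatives covered normalization, background, filters, marked spots, probe choice, the variance model, the processed signals, the series table and each array left out. Genes carry the names of the array's design, and symbols were matched through RefSeq accessions of GRCm38.p6 where listed. Promoters are RefSeq's on that build, and the Nr3c1, Hsd11b2 and Zbtb16 promoters were not used here.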

Additional observations from a re-analysis of the deposited data

Results flagged for a closer look

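Among 13 probes of the glucocorticoid genes and 15 other named probes with a value on every array, 3 had 1 array far from the rest. A probe was singled out when the gap from its extreme array to the next, divided by the range of the 4, was above Dixon's critical value, which chance exceeds in about 1 of 20 groups. The Fkbp5 probe A_52_P481493 read -1.60 on array 1 and between -0.71 and -0.70 on the others, a gap of 0.992 of the range. The Crhr2 probe read -0.74 on array 3, with a gap of 0.939 of the range, against -0.42 to -0.40 on the others. The Pomc probe read 0.42 on array 2, with a gap of 0.839 of the range, against 0.19 to 0.23 on the others.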

How the results depend on the processing

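Of the 232 recomputed ratios of the 16 glucocorticoid probes, 204 kept their sign and their side of the threshold, 14 lost the call with the same sign, 6 gained it and 8 changed sign, of which 2 also lost the call and 1 was called in the other direction. These recomputations were not all separate. The series table repeats the processed signals. The settings for filters, probe choice and the variance model reuse the loess ratios, so there only the adjusted p could change and not the sign. Median centring gave 14830 called probes over the array, against 7465, and 3 higher and 3 lower glucocorticoid probes with a median of 0.05. It turned the sign of Hsd11b1 (0.01), Nr3c1 1 (0.20), Nr3c1 2 (0.13), Fkbp5 1 (0.09), Tsc22d3 1 (0.35), Tsc22d3 2 (0.15) and Rgs2 2 (0.18), and among the other genes that of Crebbp (0.17), H6pd (0.16) and Ncoa3 (0.08). It leaves a trend of ratio with brightness, as its medians by brightness show. With 1 probe per gene, 4 glucocorticoid probes were lower, by construction from 8 tested. Leaving out 1 array gave 1604 to 8055 called probes, 3 to 12 lower and 1 higher glucocorticoid probes (without array 1, 11 of the 12 are among the 16), and a median of -0.23 to -0.15. The Sgk1 ratio then lay between -0.02 and 0.07. The calls of Pdk4, Klf9 2 and Rgs2 1 held under every alternative that tested them. For the other genes named, 220 recomputed ratios kept sign and side, 29 lost the call with the same sign, 3 gained it and 3 changed sign and lost the call. These counts hold the same repeats. Hspa8, Crebbp, Ncoa3 and H6pd were not called with the processed signals (adjusted p = 0.119, 0.102, 0.0869 and 0.0698). The higher receptor partners, 4 in the report, numbered 14 with median centring, 1 with the processed signals and 2 with an offset of 16. The alternatives for those genes and for the list counts were chosen after seeing the data. The test of within-array ratios is itself paired by array. Beyond that, no paired analysis was possible because the 4 ratios form 1 group, with no degrees of freedom left for a block by replicate number. No array had exchanged dyes, so dye and genotype cannot be told apart.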
